A study of Mus musculus with 18 samples.

Results

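RNA levels of 10 genes of the mature fat cell, Pparg, Adipoq, Cfd, Lep, Retn, Plin1, Cidec, Fabp4, Lpl and Car3, were followed through every mammary tumor and normal mammary gland of a mouse breast cancer study. The genes were picked by symbol from the 55450 genes counted, and each symbol matched 1 gene. RNA was sequenced from 15 tumors and 3 glands of female C57Bl/6 mice, with 1 library per mouse. The B1/P/Rbf tumors (n = 5) came from Brca1fl/fl/Trp53fl/fl/TgK18GT121Tg/+ mice, the B1/P tumors (n = 5) from Brca1fl/fl/Trp53fl/fl mice without the transgene, and the P/Rbf tumors (n = 5) from Trp53fl/fl/TgK18GT121Tg/+ mice with intact Brca1. The glands (n = 3) were from wild type mice. In all tumor mice an adenovirus carrying Cre under the CMV promoter was placed in the mammary ducts of adult females, and Cre deletes the floxed Brca1 and Trp53 alleles in the cells it reaches. The transgene needs Cre as well and makes, from the keratin 18 promoter in epithelial cells, a fragment of SV40 large T antigen that inhibits pRb, p107 and p130. Fat cells of the gland were not the intended target. How much of the surrounding fat pad was taken with a tumor, and at what age the wild type mice were sampled, is not given in the sources used here.

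The mammary gland of the mouse lies in a pad of white fat, so RNA of a whole normal gland holds much RNA of fat cells. The nuclear receptor PPARγ, the product of Pparg, drives fat cell differentiation and binds near many of the other genes. Mature fat cells then secrete adipokines, coat a single large lipid droplet with dedicated proteins, and take up fatty acids that lipoprotein lipase frees from circulating lipoproteins.

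Total counts per library lay between 27661173 and 37794889, with a median of 33802254. Values are given as CPM, the usual depth-scaled count unit, after TMM scaling by edgeR, and as mean ± SD over mice. The glands held high levels of muscle and lymphocyte markers too. All 10 skeletal muscle markers were lower in each tumor group than in the glands, and their summed level was 32047 to 64472 CPM in glands, 8.85 to 25.9 CPM in B1/P/Rbf, 3.23 to 806 CPM in B1/P and 3.97 to 11.3 CPM in P/Rbf tumors. The 806 CPM belonged to B1/P tumor 248662, and the other 14 tumors had 25.9 CPM at most. All 10 lymphocyte markers were also lower in each tumor group, with sums of 682 to 973 CPM in glands and 18.0 to 145 CPM in tumors. Of 10 endothelial markers 6, 5 and 8 were called lower in the B1/P/Rbf, B1/P and then P/Rbf tumors and none higher, with sums of 597 to 679 CPM in glands and 109 to 468 CPM in tumors. Of 10 macrophage markers 3, 7 and 2 were called higher and 1 lower (in P/Rbf), with sums of 233 to 354 CPM in glands and 211 to 1540 CPM in tumors. Of 12 epithelial markers 5, 4 and 6 were called higher, and 1 was lower (B1/P tumors), with sums of 2459 to 2867 CPM in glands and 1957 to 13056 CPM in tumors. Of 10 fibroblast markers 4 were called higher in B1/P tumors, and 1 and 2 lower in the tumors with the transgene (B1/P/Rbf, then P/Rbf). Of 10 fat progenitor markers 3 and 6 were called lower in those same tumors, and 1 higher in B1/P tumors. The part of these cell types in the differences from glands was not tested. None of these markers was at 0 in every library of a group. In bulk tissue, fewer cells of a type and less RNA per cell cannot be told apart.

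The fat cell genes made up 2.71% to 3.52% of all counts in the glands and 0.00106% to 0.0303% in the tumors. Their summed level fell between 31666 and 44666 CPM in the 3 glands and between 11.2 and 289 CPM in the 15 tumors. B1/P/Rbf tumor 208855 held the 289 CPM and B1/P tumor 248662 was next with 136 CPM, while P/Rbf tumors 287842 and 290845 had 11.2 and 11.3 CPM. Every one of the 10 genes was lower in every tumor than in every gland, a pattern that 27.4%, 22.7% and 26.5% of all genes tested had in the 3 tumor groups (given here and below in the order B1/P/Rbf, then B1/P, then P/Rbf). All 10 were called lower in each tumor group at an adjusted p of 0.05 or less, where 20.0% of the 19186 genes tested were called lower in the first tumor group, 16.9% in the second and 20.3% in the third. With a term for 2 sets of libraries, described below, Adipoq, Plin1, Cfd, Lep, Car3 and Cidec lost that call in B1/P/Rbf tumors, with adjusted p values from 0.0821 (Cfd) to 0.222 (Lep), and the other 4 kept it, beside 11.0% of all genes called lower. The median log2 fold change of the 10 genes was -8.39, -10.26 and -11.96 in the same order, beside 0.05, 0.12 and 0.05 over all genes tested. The 3 comparisons share the same glands. Lep and Retn passed the filter on low counts only through the glands, whereas the other 8 passed on the tumors alone.

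**Figure D1:**
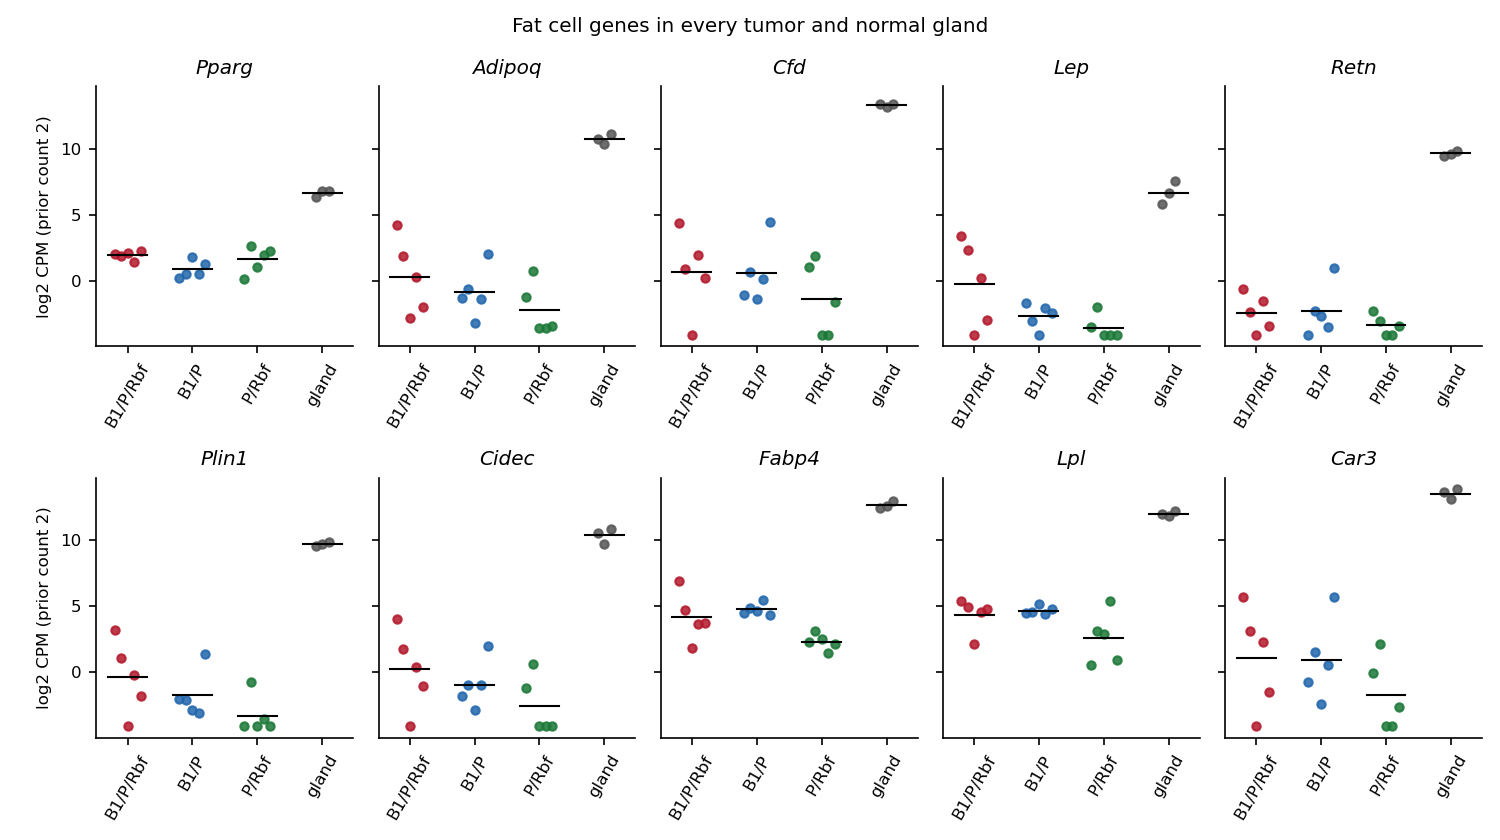
Level of each of the 10 fat cell genes in every library, as log2 CPM with a prior count of 2 added (vertical axis), by group (horizontal axis); each point is 1 mouse and the black bars are group means. The glands lie above all tumors in every panel, and the tumor points of Pparg and Lpl sit higher above the lower edge than those of Adipoq, Plin1 or Retn.

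By the median over the 15 tumors, Pparg kept the largest share of its gland level. Its level was 3.91, 3.56, 4.30, 2.56 and 4.77 CPM in B1/P/Rbf tumors 208855, 208857, 208863, 209490 and 210906. It was 1.11, 1.36, 3.34, 1.36 and 2.36 CPM in B1/P tumors 225068, 225070, 246361, 255232 and 248662, and 1.06, 6.24, 2.05, 3.87 and 4.77 CPM in P/Rbf tumors 287842, 287845, 290860, 287822 and 290845. The glands 330154, 330155 and 330156 had 80.9, 109 and 114 CPM. The tumor groups overlapped, and the glands stood clear of all of them. The log2 fold change against glands was -4.72 in B1/P/Rbf (SE 0.48, adjusted p = 1.41e-06), -5.72 in B1/P (SE 0.50, adjusted p = 6.75e-07) and -4.81 in P/Rbf tumors (SE 0.48, adjusted p = 1.23e-06). The gene for its heterodimer partner RXRα, Rxra, changed less, averaging 220 CPM in glands and 110 CPM in B1/P/Rbf tumors (adjusted p = 0.0288), and log2 fold changes of -0.31 in B1/P and -0.53 in P/Rbf tumors that did not pass. Of the relatives of PPARγ, Ppara was lower in B1/P/Rbf (-5.05) and P/Rbf tumors (-4.04) and not called in B1/P tumors (-2.14), and Ppard passed in no tumor group. Pparg lies on chromosome 6 (115360951 to 115490399, plus strand, mouse build GRCm38) and overlaps the antisense gene Gm44079. Whether the counting used the strand is not stated, so reads of both could be mixed.

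Adiponectin, the product of Adipoq, is secreted by mature fat cells and is used here as their reference marker. Adipoq reached 18.2, 3.53, 0.0827, 1.17 and 0.195 CPM in the B1/P/Rbf tumors, in the order given for Pparg. It was 0.350, 0.592, 0.0503, 0.325 and 4.04 CPM in the B1/P tumors, and 0.374, 1.64, 0.0253, 0.0263 and 0.0340 CPM in the P/Rbf tumors. The glands had 1728, 1343 and 2226 CPM. Tumors 208855, 248662 and 287845 were the highest of their genotypes, and the highest and lowest B1/P/Rbf tumors differed 219-fold, while the glands differed 1.66-fold. In 5 tumors it had 3 counts or fewer. The log2 fold change against glands was -8.57 in B1/P/Rbf (SE 1.65, adjusted p = 0.000675, or 0.104 with the term for library sets), -10.69 in B1/P (SE 1.79, adjusted p = 0.000244) and -12.05 in P/Rbf tumors (SE 1.89, adjusted p = 0.000105). Of its receptors, Adipor2 was lower in all 3 tumor groups (-2.01, -2.20 and -2.20), and Adipor1 was called in none (-0.59, -0.34 and -0.31). Cdh13, which encodes the adiponectin-binding T-cadherin, was lower in B1/P/Rbf tumors only by this test (-1.57), and the difference between tumor groups did not pass.

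Leptin, the satiety hormone encoded by Lep, had the highest tumor levels of the adipokines relative to glands in B1/P/Rbf tumors. Its level was 10.5, 4.94, 0, 1.09 and 0.0649 CPM in the B1/P/Rbf tumors. In the B1/P tumors it was 0.254, 0.0592, 0, 0.177 and 0.126 CPM, and in the P/Rbf tumors 0.0288, 0.189, 0, 0 and 0 CPM. The glands had 55.7, 97.8 and 186 CPM and differed 3.34-fold, the widest range of any of the 10 genes in glands. The 3 B1/P/Rbf tumors 208855, 208857 and 209490 lay above all B1/P and P/Rbf tumors, and the other 2 lay among them. Tumor 208855 kept 9.24% of the gland mean and tumor 208857 kept 4.36%, and the former was the highest share of any of the 10 genes in any tumor. A count of 0 allowed up to 0.0827 CPM in B1/P/Rbf tumor 208863, 0.0754 CPM in B1/P tumor 246361 and 0.0759, 0.0790 and 0.102 CPM in P/Rbf tumors 290860, 287822 and 290845, taking 3 counts as the floor, which covers counting error only. The log2 fold change against glands was -5.09 in B1/P/Rbf (SE 1.27, adjusted p = 0.0048, or 0.222 with the term for library sets), -9.83 in B1/P (SE 1.57, adjusted p = 0.000162) and -11.30 in P/Rbf tumors (SE 1.70, adjusted p = 7.13e-05). Its receptor gene Lepr ran at 3.46 CPM in B1/P/Rbf, 3.55 CPM in B1/P, 169 CPM in P/Rbf tumors and 10.5 CPM in glands on average. Lepr was called higher in P/Rbf than in B1/P tumors (log2 fold change 5.57, adjusted p = 0.0175) and in no other comparison.

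Adipsin, encoded by Cfd, is complement factor D, and resistin, encoded by Retn, is an adipokine of mouse fat. Cfd ran at 9049 to 10777 CPM in glands, against 0 to 20.5 CPM in B1/P/Rbf, 0.327 to 22.2 CPM in B1/P and 0 to 3.53 CPM in P/Rbf tumors. Its highest tumor values were 20.5 CPM in B1/P/Rbf tumor 208855 and 22.2 CPM in B1/P tumor 248662. The log2 fold changes were -10.86 (SE 2.08), -10.95 (SE 2.09) and -13.09 (SE 2.24) in the 3 tumor groups. Retn ran at 715 to 934 CPM in glands, and 8 tumors had at most 3 counts of it. Its highest value, 1.89 CPM in B1/P tumor 248662, was 0.235% of the gland mean, and its log2 fold changes were -11.88, -10.87 and -13.96. In the complement path that factor D serves, C3 had log2 fold changes of -2.49 (adjusted p = 0.0932), -1.99 (adjusted p = 0.181) and -2.96 (adjusted p = 0.0494), and Cfb passed in no group with 0.79, -0.63 and -1.63. Retnla, a relative of Retn that macrophages also make, was lower in B1/P (-5.63) and P/Rbf tumors (-9.18), not called in B1/P/Rbf tumors (14.3 CPM against 56.9 CPM in glands on average), and higher in B1/P/Rbf than in P/Rbf (7.18) and B1/P tumors (3.63).

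The stretches just upstream of the transcription starts of the adipokine genes Adipoq, Cfd and Lep are given below. Their part in the tumor levels was not tested. They come from RefSeq on build GRCm38.p6, plus strand, at chr16:23146286-23146535, chr10:79890603-79890852 and chr6:29059971-29060219. Capitals mark exact matches, on either strand, to CCAAT or to TTGCGCAA, a palindrome that C/EBP factors can bind.
Adipoq: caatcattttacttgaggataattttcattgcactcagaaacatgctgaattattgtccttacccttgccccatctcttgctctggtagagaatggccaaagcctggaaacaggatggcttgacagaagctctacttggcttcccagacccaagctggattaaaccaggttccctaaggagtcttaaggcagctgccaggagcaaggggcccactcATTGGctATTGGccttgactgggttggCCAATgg
Cfd: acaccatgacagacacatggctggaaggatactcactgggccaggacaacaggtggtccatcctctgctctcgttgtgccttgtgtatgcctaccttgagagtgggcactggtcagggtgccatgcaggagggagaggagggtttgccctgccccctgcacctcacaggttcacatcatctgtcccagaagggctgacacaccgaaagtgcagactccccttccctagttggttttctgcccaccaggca
Lep: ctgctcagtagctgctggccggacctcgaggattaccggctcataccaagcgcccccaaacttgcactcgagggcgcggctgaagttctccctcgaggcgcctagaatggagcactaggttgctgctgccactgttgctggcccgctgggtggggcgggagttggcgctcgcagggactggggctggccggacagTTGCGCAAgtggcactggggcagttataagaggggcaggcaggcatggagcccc
Lep held TTGCGCAA between 55 and 48 bases before the start, a motif in 0.164% of the 32851 upstream windows of 250 bases in the table. These positions were counted in the Lep window of 250 bases that ends at 29060220, whose last base is not printed above. Adipoq held CCAAT 3 times, counting both strands, and 33.8% of all windows held it at least once. TATAAA (12.4% of windows) and a pair of AGGTCA sites spaced by 1 base (0.0335% of windows), the element that PPARγ binds with RXRα, were searched as well on both strands and matched none of the stretches shown. The table held windows for 7 of the 10 genes, and Car3, Fabp4 and Lpl were not among them.

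Perilipin 1, encoded by Plin1, and the fat-specific protein encoded by Cidec both coat the large lipid droplet. Plin1 ran at 777 to 920 CPM in glands. It was 0 to 9.30 CPM in B1/P/Rbf, 0.0591 to 2.52 CPM in B1/P and 0 to 0.536 CPM in P/Rbf tumors, with 3 of the 5 P/Rbf tumors at 0. Cidec ran at 855 to 1837 CPM in glands, 0 to 16.2 CPM in B1/P/Rbf, 0.0754 to 3.88 CPM in B1/P and 0 to 1.51 CPM in P/Rbf tumors. For both genes tumors 208855, 248662 and 287845 were the highest of their genotypes. The log2 fold changes of Plin1 were -8.41 (SE 1.55), -10.46 (SE 1.68) and -12.89 (SE 1.87) in the 3 tumor groups. Those of Cidec were -8.37 (SE 1.70), -10.44 (SE 1.85) and -11.87 (SE 1.95). Plin2 and Plin3, the droplet coats of most cell types, passed in no tumor group, while Plin5 was lower in all 3 (-5.45, -6.69 and -6.32), as was the brown fat relative Cidea (-7.04, -5.68 and -7.14).

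Fabp4, the fatty acid carrier of fat cells and also of capillary endothelium and macrophages, was detected in every tumor. Its level was 118, 26.3, 3.45, 12.5 and 12.9 CPM in the B1/P/Rbf tumors. It was 22.6, 29.1, 24.8, 44.5 and 20.6 CPM in the B1/P tumors and 4.80, 8.61, 5.67, 2.71 and 4.26 CPM in the P/Rbf tumors, with 5545, 6049 and 8077 CPM in the glands. All B1/P tumors lay above all P/Rbf tumors, and the B1/P/Rbf tumors spanned both ranges. The log2 fold change against glands was -7.56 in B1/P/Rbf (SE 0.86, adjusted p = 4.30e-06), -7.85 in B1/P (SE 0.87, adjusted p = 4.96e-06) and -10.30 in P/Rbf tumors (SE 0.95, adjusted p = 5.27e-07). Fabp5, the skin-type carrier, was lower in B1/P/Rbf tumors (-2.13) and was called in neither of the other groups against glands (1.54 in B1/P and -1.10 in P/Rbf).

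Lpl, encoding the lipoprotein lipase that muscle and macrophages also make, was detected in every tumor as well. It measured 41.1, 30.7, 4.38, 24.0 and 27.9 CPM in the B1/P/Rbf tumors. It measured 22.6, 23.0, 36.1, 21.1 and 27.4 CPM in the B1/P tumors, and 1.41, 8.45, 7.34, 42.6 and 1.87 CPM in the P/Rbf tumors. The B1/P tumors were closest to each other, differing 1.71-fold, whereas the P/Rbf tumors differed 30.3-fold with tumor 287822 highest. The log2 fold changes against the glands, which had 4018, 3737 and 4719 CPM, were -7.34 (SE 0.94), -7.32 (SE 0.94) and -8.39 (SE 0.98) in the 3 tumor groups. Gpihbp1, which holds the lipase on capillary walls, was lower in all 3 groups (-2.62, -1.88 and -2.56), as was its inhibitor Angptl4 (-3.54, -2.46 and -4.06). Lmf1, which folds the lipase, was lower in P/Rbf tumors (-0.90) and was not called in the others.

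Car3, encoding carbonic anhydrase 3 of fat and muscle, ran at 8823 to 14876 CPM in glands. It was 50.7, 8.50, 0, 4.74 and 0.292 CPM in the B1/P/Rbf tumors and 0.540, 2.81, 0.126, 1.42 and 51.3 CPM in the B1/P tumors. It was 0.920, 4.38, 0, 0 and 0.102 CPM in the P/Rbf tumors. Tumors 208855 and 248662 had nearly the same Car3 level, and their summed skeletal muscle markers were 8.85 and 806 CPM. Their Adipoq levels were 18.2 and 4.04 CPM. The CPM ratio of Car3 to Adipoq was 2.79 in tumor 208855, 12.7 in tumor 248662 and 6.57 to 7.35 in glands. The log2 fold changes were -9.88 (SE 2.33), -10.08 (SE 2.35) and -13.46 (SE 2.63) in the 3 tumor groups. The part of muscle in the Car3 and Lpl levels of the glands and of these tumors was not tested.

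Set beside its gland mean, each gene left a different share in the tumors. The median over the 15 tumors was 0.00759% for Car3, 0.00783% for Retn and 0.0106% for Cfd. It was 0.0198% for Adipoq, 0.0210% for Plin1, 0.0301% for Cidec and 0.0573% for Lep. Fabp4 had a median of 0.197%, Lpl of 0.554% and Pparg of 3.31%. These last 3 genes had more than 3 counts in every tumor. The other 7 genes were at or below 3 counts in 3 tumors (Cfd) to 8 tumors (Lep and Retn). Counts of 3 or fewer were found for 7 of the 10 genes in each of B1/P/Rbf tumor 208863 and P/Rbf tumors 290860 and 287822, and for 6 in P/Rbf tumor 290845.

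**Figure D2:**
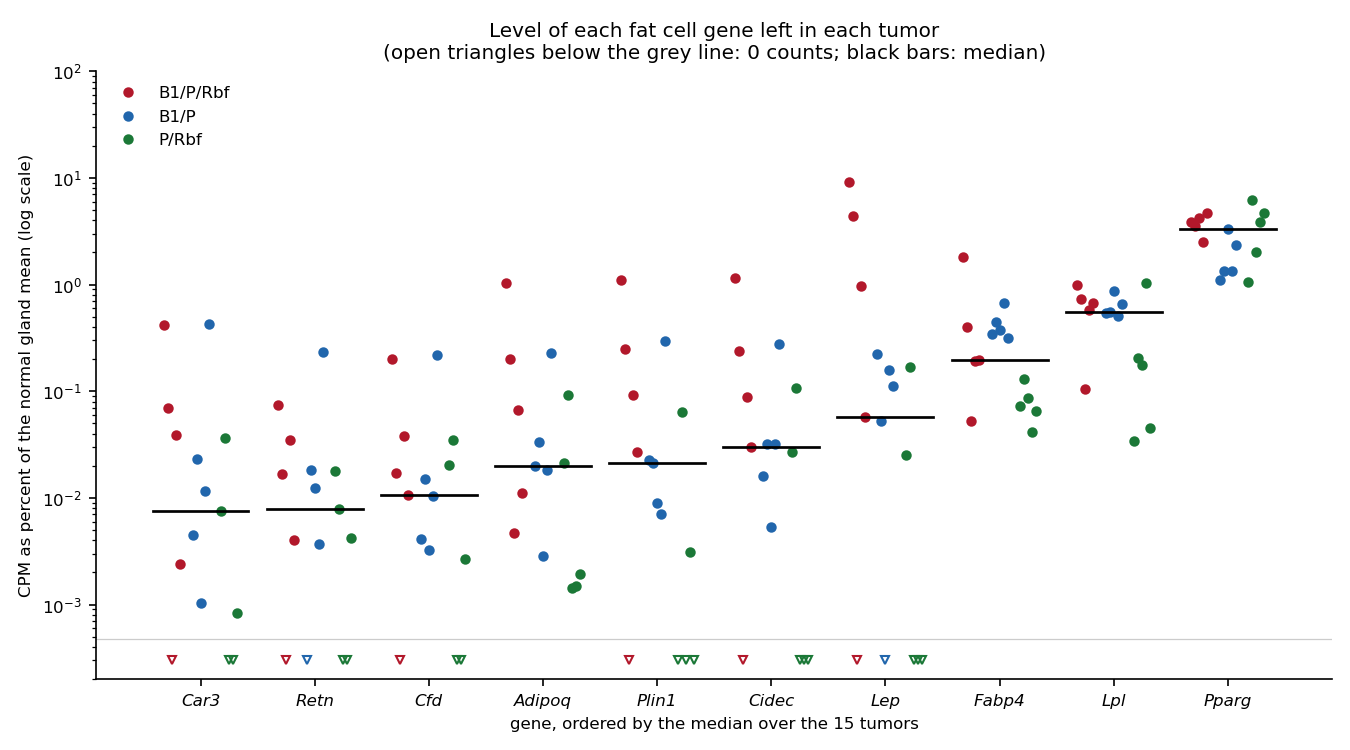
Level of each fat cell gene in each of the 15 tumors as a percent of the mean of the 3 normal glands (vertical axis, log scale), by gene (horizontal axis); filled points are tumors colored by genotype, open triangles below the grey line are tumors with 0 counts, and black bars are medians over tumors. The medians run from 0.00759% for Car3 to 3.31% for Pparg, and the 2 highest points of Lep are B1/P/Rbf tumors at 9.24% and 4.36%.

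Per kilobase of annotated exon, the mean level in glands was 10994 ± 1027 CPM for Cfd, 4235 ± 1070 for Car3, 1461 ± 299 for Fabp4 and 1279 ± 321 for Adipoq (SD, n = 3). It was 754 ± 269 for Cidec, 510 ± 72.6 for Retn, 397 ± 48.3 for Lpl, 182 ± 15.5 for Plin1, 34.2 ± 5.99 for Pparg and 33.8 ± 19.9 for Lep. Fabp4 and Adipoq, Cidec and Retn, and Pparg and Lep were the neighbors in this order whose means lay closer together than the larger of their SDs. In B1/P tumors the order on the same scale began with Fabp4 at 6.31 ± 2.14, Cfd at 5.55 ± 10.4, Car3 at 3.92 ± 7.82 and Lpl at 2.49 ± 0.580 CPM (SD, n = 5), and the SDs of Cfd and Car3 exceeded their means. The annotated exons of Fabp4 together cover its whole span of 4489 bases, so any intron of its shorter transcripts counts as exon. Per base of a shorter transcript its levels would be higher, and its places in both orders depend on that length. The length used for Lpl was 10478 bases.

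Between tumor genotypes few of the 10 genes could be told apart. B1/P/Rbf tumors, compared with B1/P tumors to see what the transgene adds to loss of Brca1 and Trp53, had higher Lep. Its log2 fold change was 4.74 (SE 1.296, adjusted p = 0.0196), with 3 of 5 B1/P/Rbf tumors above all 5 B1/P tumors. Lep was the only gene called of the 10, where 16.7% of all genes tested were called in either direction. Without tumor 208855 the log2 fold change of Lep was 3.62 and its adjusted p 0.0526, above the threshold. The call was also lost with limma-voom (adjusted p = 0.286) and with the term for library sets, and over all alternatives tried the adjusted p ran from 0.00874 to 0.286. Lep passed the filter on low counts only through the glands. Within the first of 2 sets of libraries described below, Lep was 0 to 10.5 CPM in the 5 B1/P/Rbf tumors and 0 to 0.254 CPM in the 3 B1/P tumors. Adipoq, Plin1 and Cidec had log2 fold changes of 2.12, 2.05 and 2.07 with adjusted p values of 0.264, 0.264 and 0.294, and Retn and Lpl had negative ones of -1.01 and -0.02. With 1 sample left out, Adipoq ran from 0.23 to 3.81, Plin1 from 0.39 to 4.29 and Cidec from 0.32 to 3.84. The lowest adjusted p of Plin1 in these edgeR fits was 0.0456. Of 30 other fat cell genes, 4 were called higher and 2 lower in this comparison. Rbp4, a retinol carrier that fat and liver secrete, had the largest difference at 5.72, and Mgll, which splits monoglycerides, had -2.74. Markers of other cell types differed as well. Of 10 fat progenitor markers 4 were lower in B1/P/Rbf tumors and all 10 had negative log2 fold changes, with sums of 42.2 to 275 CPM against 340 to 478 CPM. Of 10 fibroblast markers 2 were lower, with sums of 1057 to 5463 CPM against 3280 to 13758 CPM, and of 12 epithelial markers 4 were higher, with sums of 3686 to 7493 CPM against 1957 to 4961 CPM. Of the 10 skeletal muscle markers 7 were lower, and the median of their sums was 15.6 CPM with the transgene against 9.15 CPM without it, where tumor 248662 had 806 CPM. No macrophage, endothelial or lymphocyte marker was called, and all 10 macrophage markers had negative log2 fold changes. The part of these cell types in the Lep result was not tested.

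P/Rbf tumors had less Fabp4 than B1/P tumors. The log2 fold change was -2.44 (SE 0.67, adjusted p = 0.0177), with all 5 P/Rbf tumors below all 5 B1/P tumors, and Fabp4 was the only gene called of the 10 beside 19.2% of all genes. Over all alternatives tried its adjusted p ran from 0.00108 to 0.0454. Groups that did not overlap in this direction were seen for 5.11% of all genes. In the second set of libraries, with 5 P/Rbf and 2 B1/P tumors, Fabp4 was 2.71 to 8.61 CPM in P/Rbf and 20.6 and 44.5 CPM in B1/P tumors. Markers of other cell types, some of which also carry Fabp4, were compared as well. Of 10 macrophage markers 2 were lower in P/Rbf than in B1/P tumors and none higher, with Cd163 at -4.22, and their summed level was 353 to 1540 CPM in B1/P and 251 to 579 CPM in P/Rbf tumors. None of 10 endothelial markers was called, all 10 had negative log2 fold changes, and their sums were 155 to 396 CPM in B1/P and 109 to 400 CPM in P/Rbf tumors. Of 10 fat progenitor markers 6 were lower, with sums of 340 to 478 CPM against 36.3 to 123 CPM. Of 10 fibroblast markers 4 were lower in P/Rbf tumors, with sums of 3280 to 13758 CPM in B1/P and 1534 to 4441 CPM in P/Rbf tumors. Of 12 epithelial markers 6 were higher, with sums that did not overlap, 1957 to 4961 CPM in B1/P and 7917 to 13056 CPM in P/Rbf tumors. No marker of these lists was at 0 in every library of a group, and their part in the Fabp4 result was not tested. The other 9 genes of the fat cell set were not called between these groups, and 8 of them had negative log2 fold changes, from -1.08 for Lpl to -3.38 for Car3. Of 30 other fat cell genes, 4 were called higher and 5 lower in P/Rbf tumors.

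Against P/Rbf tumors, which differ from B1/P/Rbf tumors in Brca1 (with only partial loss of its expression described for tumor 208863), all 10 genes had positive log2 fold changes and none was called, where edgeR called 0.281% of all genes. Of the 10, 5 had an unadjusted p under 0.05, beside 16.1% of all genes. DESeq2 called 2 of the 10 and limma-voom 0, beside 5.35% and 0.136% of all genes. The largest was 6.20 for Lep (SE 1.46, adjusted p = 0.0747), followed by 4.49 for Plin1 (SE 1.45, adjusted p = 0.145). Fabp4 had 2.73 (SE 0.67, adjusted p = 0.0862), and Pparg 0.09 (SE 0.40, adjusted p = 0.949). The median over the 10 genes was 3.11, beside -0.01 over all genes tested. Of 30 other fat cell genes, 17 had positive and 13 negative log2 fold changes, with a median of 0.53. Among those 30 edgeR called Cd36 alone (log2 fold change 2.71, adjusted p = 0.0418). All B1/P/Rbf tumors lie in the first library set and all P/Rbf tumors in the second, so set and genotype are bridged here by B1/P tumors alone. With the term for sets 0 of the 10 were called, beside 0.0261% of all genes. Markers of several other cell types lay on the positive side too, with none called. All 10 endothelial and all 10 macrophage markers had positive log2 fold changes (medians 0.29 and 0.33), as had 9 of 10 fat progenitor (0.66) and 9 of 10 lymphocyte markers (0.53). Of 12 epithelial markers 3 were positive, and of 10 fibroblast and 10 skeletal muscle markers 5 each. The summed levels of the endothelial (140 to 468 against 109 to 400 CPM), macrophage (211 to 741 against 251 to 579 CPM), fat progenitor (42.2 to 275 against 36.3 to 123 CPM) and lymphocyte markers (18.1 to 86.6 against 18.0 to 74.5 CPM) overlapped between the groups. The part of these cell types in the fat cell values was not tested.

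**Figure D3:**
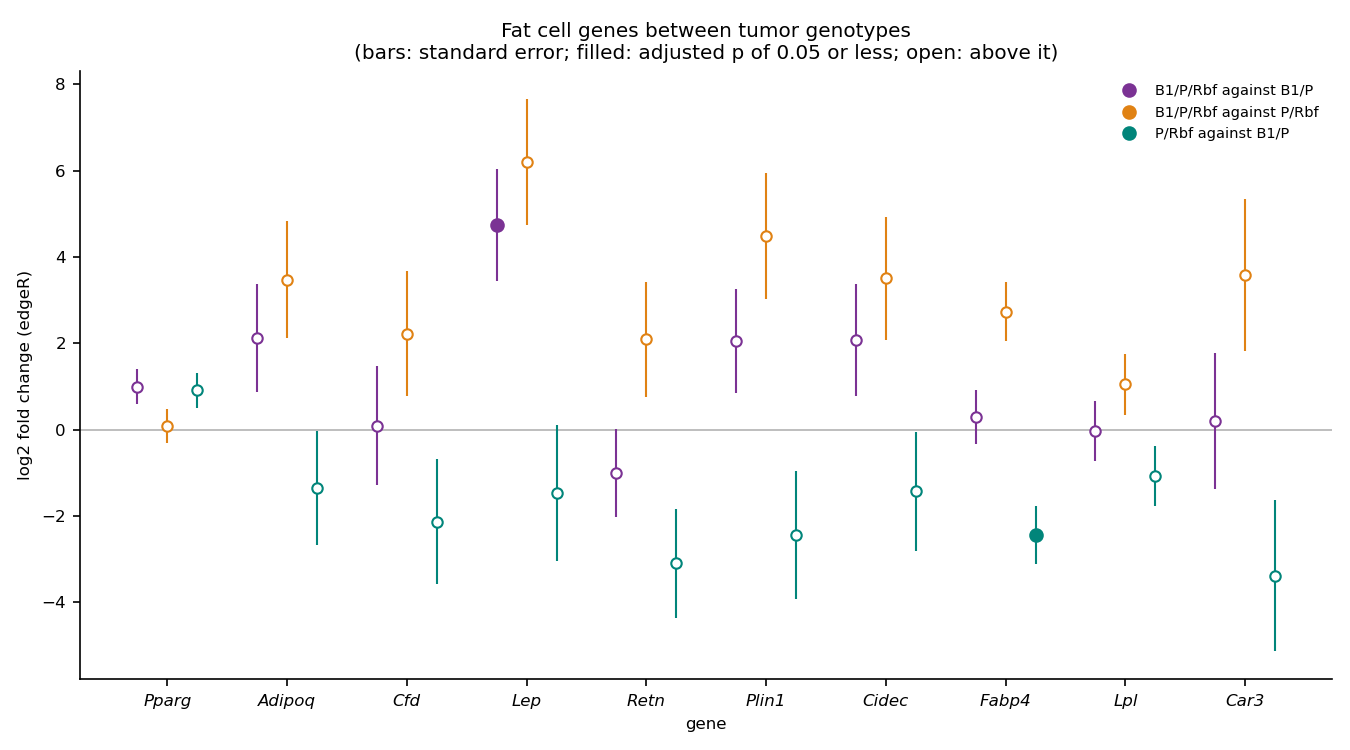
Log2 fold change of each fat cell gene (horizontal axis) in the 3 comparisons between tumor genotypes (vertical axis, edgeR); bars are standard errors, filled points have an adjusted p of 0.05 or less and open points do not. The filled points are Lep in B1/P/Rbf against B1/P tumors at 4.74 and Fabp4 in P/Rbf against B1/P tumors at -2.44.

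The gaps to the glands rested in part on single tumors. Without tumor 208855, 8 of the 10 fold changes of B1/P/Rbf tumors against glands moved by more than 1.5-fold, to log2 values between -12.72 (Retn) and -6.21 (Lep). Without tumor 248662, 6 of those of B1/P tumors did, to between -13.56 (Cfd) and -12.20 (Cidec). For P/Rbf tumors, leaving out tumor 287845 moved 6 of them to between -16.27 (Plin1) and -13.36 (Lep), tumor 287842 moved Retn to -14.85, tumor 287822 moved Lpl to -9.77, and gland 330156 moved Lep to -10.70. All 10 genes remained called lower in every one of these fits. The libraries also fall into 2 sets that the labels do not name, which an earlier analysis of these data inferred from fold changes released with the study. In the first are the 5 B1/P/Rbf tumors with 225068, 225070 and 246361 of B1/P, and in the second everything else. No set holds both B1/P/Rbf tumors and glands. With a term for the sets, 4 of the 10 genes remained called lower in B1/P/Rbf tumors against glands. The 4 were Pparg, Fabp4, Lpl and Retn, of which Retn passed the filter on low counts only through the glands. For this comparison the sets and genotypes are bridged by B1/P tumors alone.

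From tumor to tumor, Cidec, Car3, Plin1 and Cfd rose and fell with Adipoq. Over the 15 tumors, Pearson's r of log2 CPM with Adipoq was 0.98 for Cidec, 0.96 for Car3, 0.94 for Plin1 and 0.89 for Cfd, and these 4 of 9 genes had an adjusted p of 0.05 or less in a permutation test (raw p = 1e-05, the smallest that 100000 resamples can give, for the first 3, and 2e-05 for Cfd), beside 0.0417% of all genes. Their adjusted p values were 0.0274, 0.0274, 0.0274 and 0.048. Spearman's rho was 0.95, 0.96, 0.83 and 0.93 in the same order, with raw permutation p values of 1e-05, 1e-05, 0.00033 and 1e-05 and adjusted values of 0.048, 0.048, 0.633 and 0.048. Lep followed with r = 0.86 (rho = 0.84, permutation p of r 7e-05, adjusted 0.149) and Retn with r = 0.77 (rho = 0.78, permutation p of r 0.00091, adjusted 0.97). Fabp4 had r = 0.68 (rho = 0.56, permutation p of r 0.00482, adjusted 1). Lpl (r = 0.36) and Pparg (r = 0.04) did not track Adipoq beyond the spread, with permutation p values of 0.188 and 0.895. Tumors at or below 3 counts share nearly the same low value for several genes, which enters these coefficients.

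Without B1/P tumor 248662 and B1/P/Rbf tumor 208855, the tumors farthest from the median of Adipoq, r was 0.96 for Cidec, 0.95 for Car3, 0.87 for Plin1 and 0.82 for Cfd, with adjusted p values of 0.0959, 0.0959, 0.456 and 1. With the mean of each tumor genotype subtracted, r was 0.98, 0.98, 0.93 and 0.89, with adjusted p values from 0.192 to 0.31. With 100000 resamples the smallest adjusted p possible over 19185 genes was 0.192 for 1 gene at the smallest raw p and 0.0959 for 2 such genes. Cidec and Car3 without the 2 tumors lay at that limit, whereas Plin1 and Cfd lay above it.

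**Figure D4:**
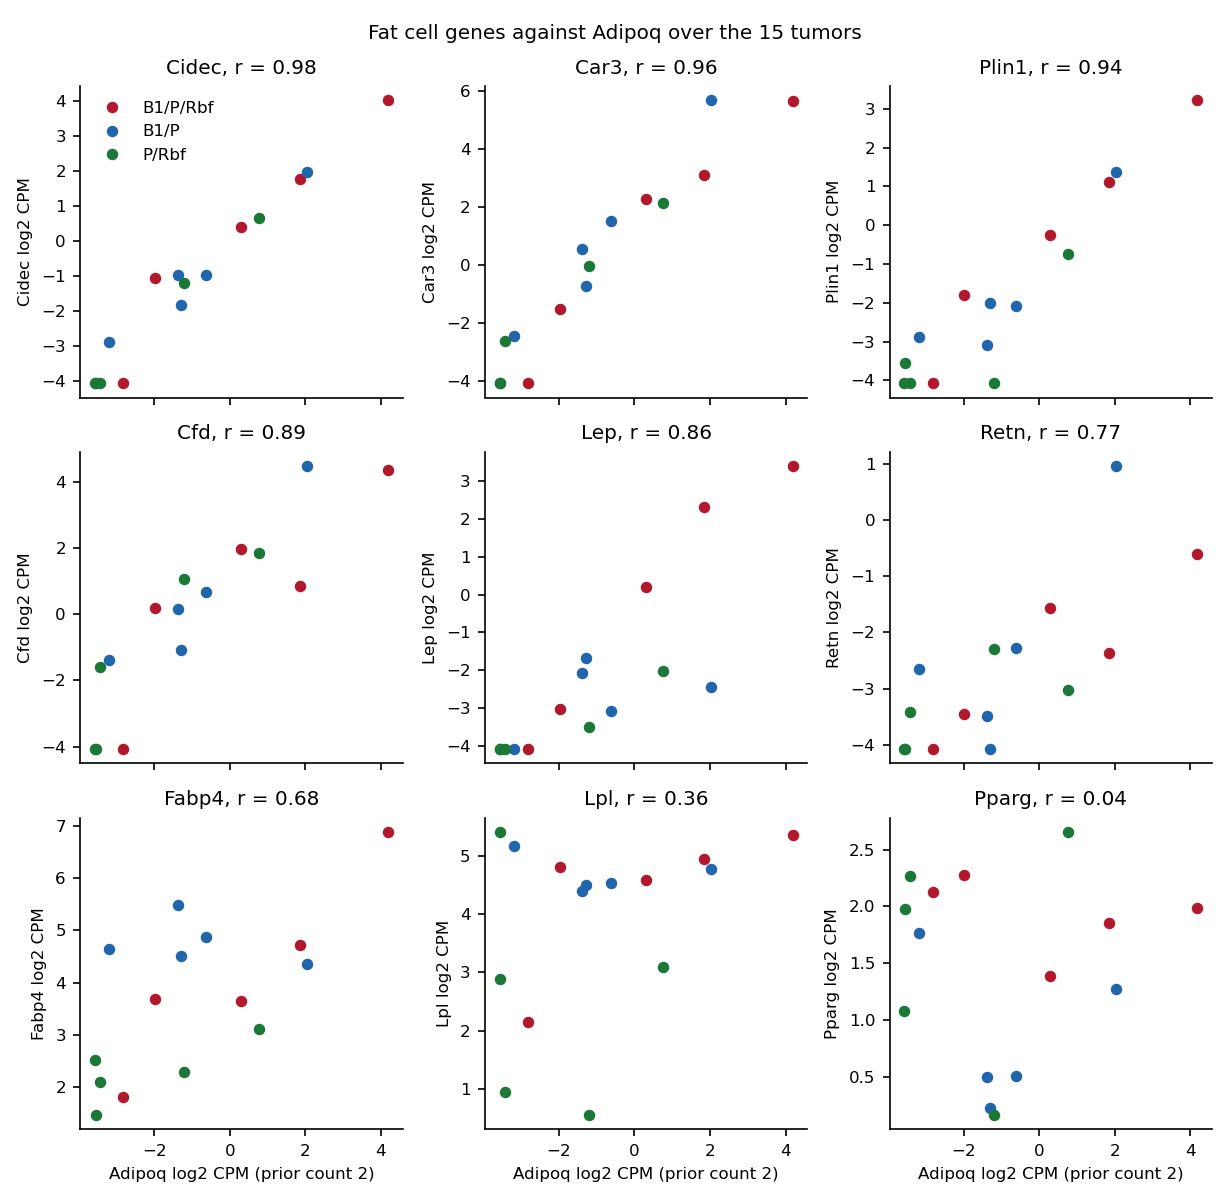
Each of the other 9 fat cell genes (vertical axes, log2 CPM) against Adipoq (horizontal axis, log2 CPM, prior count 2) over the 15 tumors, colored by genotype, with Pearson's r above each panel. Cidec, Car3 and Plin1 follow a line, Lep in B1/P/Rbf tumor 208857 (4.94 CPM) lies above B1/P tumor 248662 (0.126 CPM) at a like Adipoq level, and Pparg shows no trend.

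Levels relative to Adipoq, the log2 CPM of a gene minus that of Adipoq in the same library, compare the genes within each library. Almost any gene rose on this scale because Adipoq itself fell, and 98.4%, 99.6% and 99.5% of the genes tested differed from glands in the 3 tumor groups by an exact two-sided permutation test. Of the 9 genes, 5, 3 and 5 did. Plin1 differed from glands by 0.37, 0.19 and -0.07 and Cidec by 0.28, 0.32 and 0.01, and all of these lay within the spread (exact permutation p of 0.286 or more). Pparg rose on this scale by 5.73, 5.86 and 7.94 and Fabp4 by 1.94, 3.76 and 2.59, without overlap with the glands (exact permutation p = 0.0357, the smallest that 5 against 3 samples allow). Lpl rose by 4.31 in B1/P and 3.52 in P/Rbf tumors, and had 2.81 in B1/P/Rbf tumors (exact permutation p = 0.107). With Plin1 in place of Adipoq, Fabp4 in B1/P tumors no longer passed (adjusted p = 0.0717). In tumors 208863, 246361, 290860, 287822 and 290845 Adipoq itself had 3 counts or fewer and Lep 0, so the sizes of all differences there are set in part by the prior count. No change of Lep, Car3 or Cfd is read from this scale. The calls of Car3 in P/Rbf tumors (adjusted p = 0.143 with Plin1 in place) and of Cfd in B1/P/Rbf tumors (adjusted p = 0.0728 with a prior count of 0.5) were lost under alternatives. Between tumor genotypes no gene of all 19185 passed on this scale, and none of the 9 had an unadjusted exact permutation p under 0.05.

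The CPM ratio of Lep to Adipoq varied widely among tumors. It was 0.577, 1.40, 0, 0.935 and 0.333 in the B1/P/Rbf tumors and 0.727, 0.100, 0, 0.545 and 0.0313 in the B1/P tumors, in the order given for Pparg. In the P/Rbf tumors it was 0.0769, 0.115, 0, 0 and 0, and in the glands 0.0322, 0.0728 and 0.0837. The tumor groups overlapped on this ratio, and in B1/P and P/Rbf tumors it rested on 8 counts of Lep or fewer. Among the 4 tumors with the most Adipoq, B1/P/Rbf tumors 208855 and 208857 lay above all glands, B1/P tumor 248662 lay below them, and P/Rbf tumor 287845 lay above them.

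Other genes of the fat cell fell with these 10. Of 30 further fat cell genes, 28 were lower in B1/P/Rbf, 29 in B1/P and 28 in P/Rbf tumors than in glands, and none was higher. Their summed level was 13186 to 17010 CPM in glands and 278 to 960 CPM in tumors, and Tshr was at 0 in all P/Rbf tumors. Pck1, which feeds glycerol synthesis, had log2 fold changes of -10.23, -10.40 and -13.80. Adrb3, the adrenergic receptor that triggers lipolysis, had -12.20, -9.85 and -11.78. Those not called were Rbp4 and Dgat2 in B1/P/Rbf, Npr3 in B1/P, and Rbp4 and Npr3 in P/Rbf tumors. Rbp4 averaged 145 CPM in glands, 46.7 CPM in P/Rbf and 178 CPM in B1/P/Rbf tumors, and it was called lower in B1/P tumors (-5.42).

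Of 13 genes of fatty acid and triglyceride synthesis, which many tumors and the lactating epithelium also use, 12, 11 and 11 were lower and none higher. Their median log2 fold changes were -3.21, -3.35 and -2.22. Fasn, the fatty acid synthase, had log2 fold changes of -3.91, -4.22 and -4.31, and was still at 416, 336 and 314 CPM on average in the 3 tumor groups. Scd2, a desaturase, was not called in any group, with log2 fold changes of 0.86, 0.91 and 1.10. Of 10 brown and beige fat markers 7, 5 and 6 were lower, with Ucp1, the uncoupling protein, at -11.55, -9.45 and -10.46 beside 111 CPM in glands.

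Some gene profiles over the tumors resembled the mean of the 10 genes more than several of the 10 did. Of all genes outside the 10, the highest Pearson's r with that mean over the 15 tumors, as a description, belonged to Pck1 (0.96), Plin4 (0.94), Aqp7 (0.90), Slc7a10 (0.88) and A530016L24Rik (0.82). The first 3 were already on the list of fat cell genes. Outside all lists, Slc7a10 and A530016L24Rik were followed by Lctl (0.82), Ganab (0.81) and Sfrp5 (0.79). Slc7a10, an amino acid transporter, ran at 0 to 1.65 CPM in tumors and 82.7 to 131 CPM in glands. A530016L24Rik ran at 0 to 0.369 CPM in tumors and 119 to 146 CPM in glands, and Ganab differed from both, with 179 to 487 CPM in tumors and 193 to 209 CPM in glands.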

How the data were processed

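The authors trimmed the reads of stranded mRNA libraries with cutadapt 1.18 and counted them with RSEM 1.3.0. The authors deposited expected counts of RSEM for 55450 genes without normalization, and 5.61% of the values in the table (genes by samples) are not exact integers. A human reference is named in the study, but every identifier belongs to GENCODE release M21 on mouse build GRCm38, from which positions and exon lengths were taken. Counts were rounded here and tested with edgeR 4.0.16 in R 4.3.3 (TMM, filterByExpr with a minimum count of 10, 1 quasi-likelihood fit of all 18 samples), with p values adjusted by Benjamini and Hochberg's method over all 19186 genes kept and called at 0.05 or less. Log2 CPM used a prior count of 2. Levels relative to Adipoq were compared by exact permutation tests and correlations by 100000 resamples, both on every gene with adjustment over all, in Python 3.11.15 with scipy 1.17.1. Gene symbols defined the 10 fat cell genes, and the genes most like them were the 5 with the highest r with their mean over the tumors; of each list, counts and up to 4 of the genes with the largest changes were named, and receptors, partners and relatives beside their gene. The genes, lists and tests were chosen with earlier results of these data known. The samples are separate mice. Depth was 27661173 to 37794889 counts per library. Alternatives were DESeq2 1.42.0, limma-voom (limma 3.58.1) with quantile normalization, no TMM, testing every gene with counts (32772 genes), the study's own cut on log2 CPM, of 6 in 6 samples (4551 genes), only the groups compared, a term for 2 library sets, a prior count of 0.5, Plin1 in place of Adipoq, and leaving out each sample. The fits were tested on simulated data.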

Additional observations from a re-analysis of the deposited data

Results flagged for a closer look

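Of 30 sets of 5 tumors tested with Dixon's ratio (10 genes in 3 tumor genotypes, log2 CPM), 4 held a tumor far from the rest. For independent sets of normal values chance gives about 1 in 20 sets. These sets share the same tumors, their genes are correlated and several hold tied values at 0 counts, so that rate need not apply. Plin1 in B1/P tumor 248662 was high at 2.52 CPM (ratio 0.757). Plin1 in P/Rbf tumor 287845 was high at 0.536 CPM (ratio 0.841), and so was Lep in the same tumor at 0.189 CPM (ratio 0.724), both beside tumors at or near 0 counts. Lpl in B1/P/Rbf tumor 208863 was low at 4.38 CPM (ratio 0.759), a tumor in which 7 of the 10 genes had 3 counts or fewer.

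The effects of genotype relative to the same glands differed by edgeR's test for Lep, which was 4.74 higher on the log2 scale in B1/P/Rbf tumors than in those of B1/P mice. They differed for Fabp4 between P/Rbf and B1/P tumors, by -2.44, lower in P/Rbf tumors. With the same glands on both sides, both values are those of the tumor comparisons given above and come from no further test. The Lep difference lost its call without tumor 208855, with limma-voom and with the term for library sets (adjusted p up to 0.286), and Lep did not pass the filter on tumors alone. When single samples were left out in turn, the Fabp4 difference kept its call each time.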

How the results depend on the processing

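All 10 genes kept their call against glands under DESeq2 (9 of 9, since Cfd had no adjusted p), limma-voom, no TMM and no filter, and in each fit without 1 sample. Of all genes, DESeq2 called 18.4% to 21.6% lower than in glands and limma-voom 18.1% to 19.5%. The share was 12.7% to 16.5% without TMM and 10.5% to 12.9% without the filter. The fits without 1 sample called 2511 to 4005 of 19186 genes lower. Without TMM the median log2 fold change of all genes against glands moved by 0.27 to 0.37, and with limma-voom by 0.07 to 0.15. No member passed the study's own cut on log2 CPM, so that alternative gave no value, and Lep, Plin1 and Retn were not kept when only 2 tumor groups were fitted. No paired analysis was possible because the replicates are separate mice with numbers of their own.

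The term for library sets left 4 genes called in B1/P/Rbf tumors against glands, 0 between B1/P/Rbf and B1/P and 2 in P/Rbf against B1/P tumors, beside 20.2%, 12.4% and 10.5% of all genes in either direction. For B1/P/Rbf against B1/P, limma-voom called 0, beside 16.0% of all genes. The fit of only those groups called 0 of the 7 genes it kept, beside 12.3% of all genes, and since Lep was not among the 7 this is no loss of its call. DESeq2 called 2 in B1/P/Rbf against P/Rbf and 2 in P/Rbf against B1/P tumors, beside 5.35% and 26.2% of all genes, and its 1026 genes in the former compare with 54 by edgeR. The number of genes correlated with Adipoq was 0 with group means subtracted, 2 with Plin1 in its place and 0 without the 2 farthest tumors.

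Signs turned for B1/P/Rbf against B1/P with limma-voom (Cfd -0.15, Retn 0.17, Fabp4 -0.57), without TMM (Lpl 0.0027), with only those groups (Lpl 0.018) and with the library sets (Retn 1.27). Relative to Plin1, Cidec was -0.10 in B1/P/Rbf tumors against glands, and Car3 -0.13 and Cidec -0.18 against P/Rbf tumors. With a prior count of 0.5, Cidec in P/Rbf tumors against glands was -0.58 relative to Adipoq. The r of Pparg was -0.000757 with that prior count, -0.036 with group means subtracted and -0.071 without the 2 farthest tumors. None of these values passed its test in the main analysis, and the cause was not tested.

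Leaving out 1 sample, the genes called numbered 0 to 2 in B1/P/Rbf against B1/P, 0 to 2 in B1/P/Rbf against P/Rbf and 1 to 2 in P/Rbf against B1/P tumors. Of all 19186 genes, the same fits called 2326 to 3476, 8 to 131 and 2762 to 3937 in that order. In the first comparison Cfd ran from -1.60 to 2.70, Car3 from -1.73 to 3.39, Retn from -1.85 to 1.51, Fabp4 from -1.04 to 0.58 and Lpl from -0.26 to 0.25. In the second Pparg ran from -0.16 to 0.38. In the third Adipoq ran from -3.18 to 0.34, Cfd from -3.14 to 0.48 and Cidec from -3.39 to 0.33, with the positive values without B1/P tumor 248662. Counts of 3 or fewer limit 7 of the 10 genes in the tumors.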
